A study of Mus musculus with 24 samples.

Results

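The genes described here are the actin isoforms and nonmuscle myosin II genes of mouse dendritic cells, 10 genes chosen by symbol from the 55487 genes of the authors' table. They are the cytoplasmic actins Actb and Actg1, the heavy chains Myh9 and Myh10, the essential light chain Myl6, the regulatory light chains Myl9, Myl12a and Myl12b, the light chain kinase Mylk and the kinase Rock1. Messenger RNA was read by stranded poly(A) RNA-seq in bone-marrow-derived dendritic cells, grown in medium with GM-CSF from the marrow of mice of both sexes, aged 8 to 10 weeks. WT cultures came from mice labelled ARPC4 Flox/Flox CD11c-Cre -/-, and KO cultures from mice labelled ARPC4 Flox/Flox CD11c-Cre +/-, so that both genotypes carry floxed Arpc4, whose protein belongs to the Arp2/3 complex that nucleates branched actin. Cre is driven by the CD11c promoter, so deletion is limited to cells in which that promoter has been active. Cells in suspension, checked for CD11c by flow cytometry, were collected on days 7, 8, 9 and 10, and cultures had been replated on days 4 and 7. Each of the 8 groups of 1 genotype and 1 day held 3 libraries, numbered by mouse (63, 65 and 66 for WT, 64, 67 and 68 for KO), which gave 24 libraries.

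Actin filaments are built from monomers that, in cells other than muscle, come almost wholly from the beta isoform (Actb) and the gamma isoform (Actg1). Nonmuscle myosin II is a motor that pulls on these filaments. Its heavy chains carry the motor domain, the essential light chain steadies the neck, and the regulatory light chains switch the motor on when they are phosphorylated. Mylk encodes a calcium-calmodulin-dependent kinase for the regulatory light chain, and Rock1 a kinase downstream of RhoA that phosphorylates the light chain and inhibits its phosphatase. In dendritic cells actomyosin drives migration and sets how the cell shape changes during antigen uptake, while Arp2/3 builds the branched actin of protrusions.

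Transcription of several actin and myosin genes is known to depend on serum response factor, which binds the CArG box, a CC and a GG separated by a run of A and T bases. RefSeq promoter windows on GRCm38.p6, each from 250 bases before to 50 bases after a gene start, were found for 8 of the 10 genes (not for Actb and Rock1). A CArG box on either strand lay in a window of 3 of them, against 535 of 32851 windows of the same length (1.63%) and 488 of 27025 genes (1.81%). The stretches are shown because they are the positions in these windows at which a motif tied to actin gene transcription can be read, and they span 60 bases each with the motif in capitals.
Actg1, chr11:120348551-120348610, minus strand: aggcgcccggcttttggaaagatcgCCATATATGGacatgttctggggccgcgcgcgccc
Myl6, chr10:128493025-128493084, minus strand: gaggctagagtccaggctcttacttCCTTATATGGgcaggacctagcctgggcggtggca
Myl9, chr2:156775278-156775337, plus strand: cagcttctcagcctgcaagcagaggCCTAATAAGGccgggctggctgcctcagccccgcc
The motif starts 90 bases before the RefSeq start that sets the window in Actg1, 50 bases before it in the second of the 2 Myl6 windows, and 161 bases before it in Myl9. These RefSeq starts are not the GENCODE gene ends given next. The Myl6 stretch overlaps exons annotated to Myl6, none of them as UTR, while the Actg1 and Myl9 stretches overlap no exon of their genes. A match is a description of letters and was not set against any binding data.

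Positions of the genes follow GENCODE M21 on GRCm38, in which all 10 are protein-coding. Actb (ENSMUSG00000029580.14) lies on chromosome 5 from 142903115 to 142906754 on the minus strand, and Actg1 (ENSMUSG00000062825.15) on chromosome 11 from 120345690 to 120348542 on the minus strand. Myh9 (ENSMUSG00000022443.17) lies on chromosome 15 from 77760587 to 77842175 on the minus strand, and Myh10 (ENSMUSG00000020900.15) on chromosome 11 from 68691559 to 68816632 on the plus strand. Myl6 (ENSMUSG00000090841.2) lies on chromosome 10 from 128490860 to 128494145 on the minus strand, and Myl9 (ENSMUSG00000067818.6) on chromosome 2 from 156775420 to 156781658 on the plus strand. The regulatory light chain genes Myl12b (ENSMUSG00000034868.9, 70973133 to 70990890) and Myl12a (ENSMUSG00000024048.15, 70993656 to 71002878) are neighbours on the minus strand of chromosome 17. Mylk (ENSMUSG00000022836.11) lies on chromosome 16 from 34745210 to 35002420 on the plus strand, and Rock1 (ENSMUSG00000024290.9) on chromosome 18.

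Libraries held 19952047 to 31049798 counts. Arpc4 had lower KO means on every day, with 169, 228, 201 and 181 CPM in KO against 192, 260, 228 and 220 CPM in WT on days 7, 8, 9 and 10 (CPM are counts scaled to the TMM-adjusted library total). The CPM of the 3 KO libraries did not overlap those of the 3 WT libraries on any of the 4 days, although no day passed the adjusted threshold (lowest adjusted p = 0.177). Whole-gene counts do not read the floxed exons apart from the rest. Among 14 dendritic cell markers Itgax, which encodes CD11c, ran from 750 to 1661 CPM and Cd74 from 778 to 4040 CPM, while Flt3 (0.762 to 6.7 CPM) and Zbtb46 (2.15 to 23.7 CPM) were low. Macrophage markers (10 genes, summed 2755 to 5823 CPM), neutrophil markers (11 genes, summed 1729 to 5989 CPM) and megakaryocyte and platelet markers (9 genes, summed 94.7 to 871 CPM) were present in all libraries. The mouse numbers of the KO libraries go against a Y-linked gene. Ddx3y was high (56.5 to 83.9 CPM) in 1 library of each group and at or below 0.136 CPM in the rest. In WT it was number 63 throughout. In KO it was number 64 on days 7 and 9, but 68 on day 8 and 67 on day 10. Comparisons below therefore use the groups and not the KO numbers, and a KO number names a library and not an animal followed over days.

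The levels of these genes differed widely in the authors' TPM, a length-scaled unit that allows genes to be compared. Actb stood first at 5034 to 9254 TPM (median 7752), followed by Actg1 at 967 to 1745 TPM, Myl6 at 397 to 556 TPM and Myh9 at 296 to 464 TPM. Myl12a, a regulatory light chain gene, ran from 72.4 to 111 TPM and Rock1 from 14.6 to 28.9 TPM. Myl12b ran from 4.53 to 10 TPM, Mylk from 0.55 to 7.4 TPM, Myl9 from 0 to 1.28 TPM and Myh10 from 0.06 to 0.44 TPM. The ranges of neighbours in this order over all 24 libraries did not overlap from Actb to Actg1, from Actg1 to Myl6, from Myh9 to Myl12a, from Myl12a to Rock1 and from Rock1 to Myl12b, whereas Myl6 overlapped Myh9, Myl12b overlapped Mylk, and Myl9 overlapped Mylk and Myh10. Within a library Myl6 was nonetheless above Myh9 in every case, with a TPM ratio of 1.05 to 1.7.

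**Figure D1:**
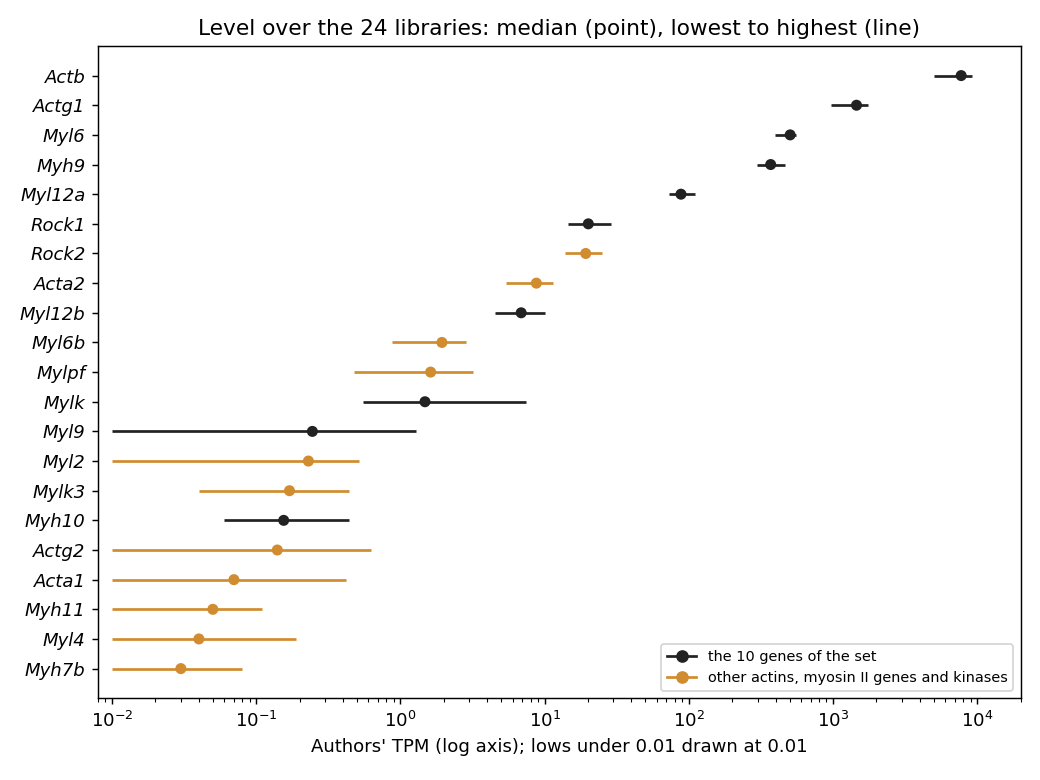
Authors' TPM (log axis) of the 10 genes (black) and of other actin, myosin II and kinase genes with a median above 0 (orange), with the median over the 24 libraries as a point and the lowest to highest library as a line. Actb (median 7752 TPM) and Actg1 stand above the other genes, and Myh10 and Myl9 lie among muscle genes under 2 TPM.

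The heavy chain signal was nearly all Myh9, the chain of myosin IIA. The Myh10 to Myh9 TPM ratio was 0.000151 to 0.00131 over the 24 libraries. Actg1 stood at a TPM ratio of 0.179 to 0.217 to Actb, and both together made up 0.6% to 1.09% of all TPM. Of 17 other actin and muscle or minor myosin II genes, 13 were under the count filter, among them the smooth muscle heavy chain Myh11 (at most 0.11 TPM) and the gamma smooth muscle actin Actg2 (at most 0.63 TPM). The exception among actins was Acta2, smooth muscle alpha actin, at 5.38 to 11.5 TPM. Rock2, the paralog of Rock1, was at a similar level to it, 13.8 to 24.9 TPM.

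Some of these levels rest on how reads were assigned, which is not given in the sources used here. Of the 100-base stretches of Actg1 transcripts, 39.4% also occur in transcripts of other genes, chiefly the predicted gene Gm12715 (34.3% of stretches), which itself held 7725 counts over the 24 libraries against 770713 for Actg1. The share was 0.9% for Actb and 7.06% for Myl6. A predicted readthrough gene on the same strand, Gm49909, covers 100% of the coding bases of Myl12b and 67.1% of those of Myl12a, and it held 0 counts in all 24 libraries. The levels of Myl12a and Myl12b are therefore uncertain. Whether reads over the shared bases were counted is not given. If they were not, a difference between groups in where reads fall along these genes could change their counts, which was not tested. Myl12a and Myl12b shared 21 stretches with each other, of 2910 and 2210, and Mylk and Myl9 shared none with any gene.

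**Figure D2:**
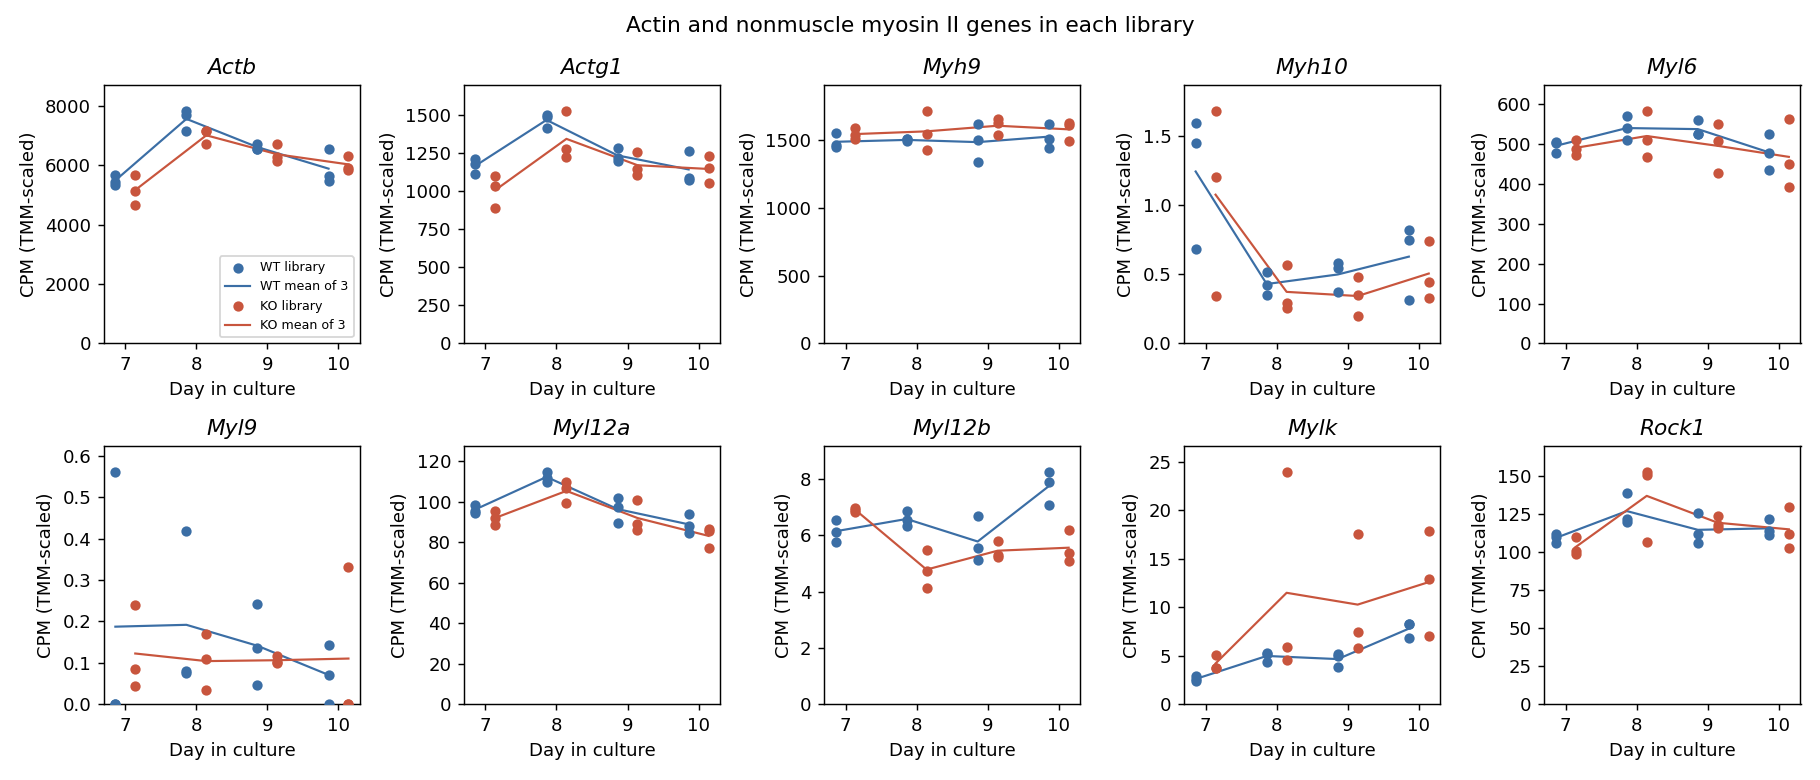
CPM of each gene (vertical axes start at 0) by day in culture (horizontal axes) in the WT (blue) and KO (red) libraries, 3 points per group, with lines joining the group means. Actb and Actg1 peak on day 8 in both genotypes, Myh9 stays between 1333 and 1713 CPM, and 3 KO libraries hold the Mylk values at and above 17.6 CPM.

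The step between days 7 and 8 moved the actins together in both genotypes. Actb was at 5334, 5445 and 5672 CPM in the WT libraries on day 7 and at 7695, 7136 and 7824 CPM on day 8. In KO it was at 5134, 4662 and 5681 CPM on day 7 and at 6692, 7153 and 7155 CPM on day 8. Every day 8 library lay above every day 7 library of its genotype. The log2 fold change was 0.46 in WT (SE 0.0912, adjusted p = 0.000376, edgeR) and 0.44 in KO (SE 0.0912, adjusted p = 0.000617). Fewer cells of a type and less RNA per cell cannot be told apart in these bulk libraries, here or below. Marker sums of other cell types differed over this step as well. In WT the megakaryocyte and platelet sum was 349 to 386 CPM on day 7, 452 to 514 on day 8, 255 to 305 on day 9 and 126 to 148 on day 10. In KO it was 261 to 477 CPM on day 7 and 309 to 871 CPM on day 8. The sum of 6 endothelial markers was 389 to 407 CPM on day 7 and 157 to 184 CPM on day 8 in WT, and 377 to 448 then 147 to 158 CPM in KO, with no overlap. Most of that sum was Vwf (111 to 426 CPM over the 24 libraries), which platelets also hold, while Cdh5, Tek and Emcn were at most 0.936, 0.175 and 0.401 CPM. The macrophage sum was 4894 to 5284 then 4227 to 4592 CPM in WT, and 4533 to 5823 then 3431 to 5202 CPM in KO. The dendritic cell sum was 4972 to 5926 then 7060 to 7721 CPM in WT, and 5562 to 5979 then 6926 to 8790 CPM in KO. Their part in the actin values was not tested.

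Actg1 rose over the same step. The WT libraries held 1113, 1175 and 1207 CPM on day 7 and 1484, 1412 and 1499 CPM on day 8, and the KO libraries 1032, 888 and 1097 CPM, then 1224, 1274 and 1525 CPM. The groups did not overlap in either genotype. Its log2 fold change was 0.33 in WT (SE 0.0972, adjusted p = 0.00933) and 0.41 in KO (SE 0.0972, adjusted p = 0.00181). The WT call was lost without number 63 (0.30, adjusted p = 0.0967). After day 8 the means of both actins were lower at each step, none of which passed the threshold, except that the KO mean of Actg1 differed little between days 9 and 10. On day 10 they were 5879 (SD 585) and 6021 (SD 258) CPM for Actb and 1141 (SD 105) and 1144 (SD 88.9) CPM for Actg1 in WT and KO. In KO Actb on day 10 lay above day 7 in every library, with a log2 fold change of 0.22 (95% interval 0.03 to 0.41, adjusted p = 0.0612). That difference passed the threshold under 5 of 14 alternatives. These included the DESeq2 Wald test (adjusted p = 0.0124) and the mouse as a block (adjusted p = 0.0334, and 0.0133 with KO numbers exchanged to follow Ddx3y). Under the 14 alternatives the change ran from 0.11 to 0.53 and the adjusted p from 0.000271 to 0.423.

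Between days 7 and 8, 4 of the 9 genes tested were called in WT, 3 higher and 1 lower, where 43.4% of all 14535 genes tested were called (21.5% higher and 22% lower). In KO 7 of 9 were called, 5 higher and 2 lower, where 42% of all genes were called (21.1% higher and 20.9% lower). The CPM of the groups did not overlap for 7 of 9 genes in WT and 4 of 9 in KO, against 59.8% and 46.6% of all genes. The median log2 fold change of the 9 genes was 0.21 in WT and 0.19 in KO, beside medians of 0.00 over all genes. The WT share is close to that of all genes. The comparisons of day 8 and of day 10 with day 7 share the day 7 libraries. A replating on day 7 and the day itself cannot be told apart in this step, and the kit used for each library, of the 2 kits named, is not given.

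**Figure D3:**
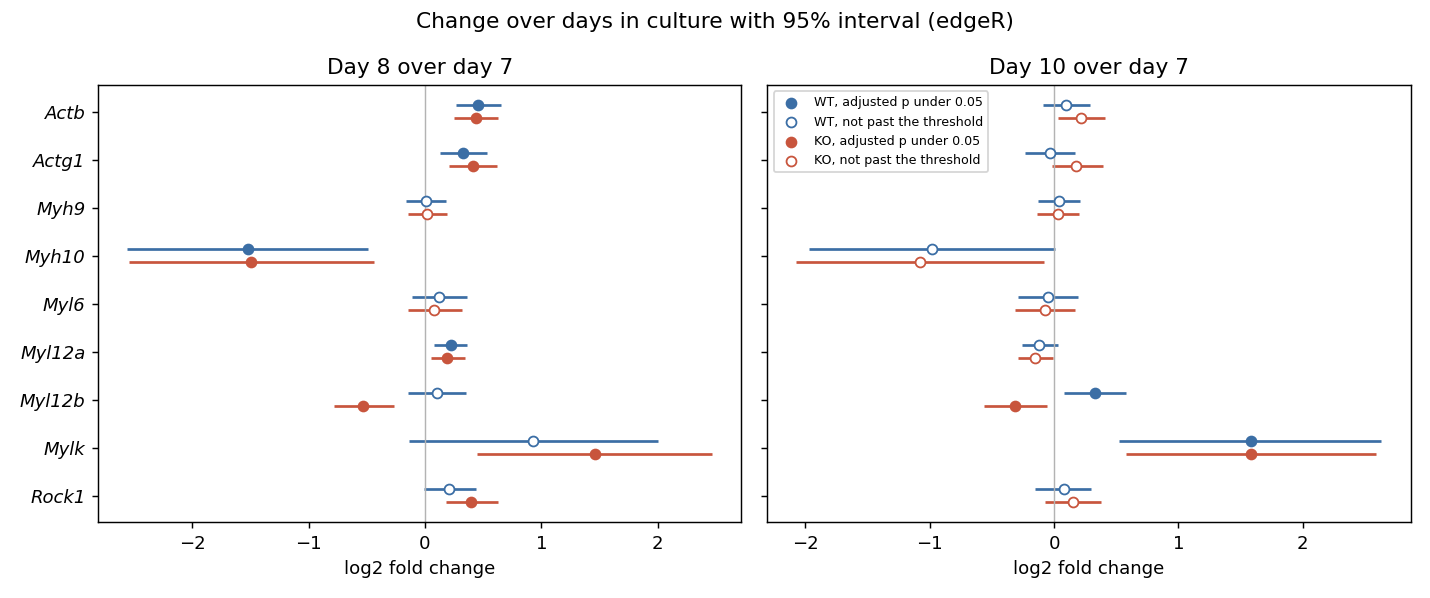
Log2 fold change (horizontal axis) of the 9 tested genes from day 7 to day 8 (left) and from day 7 to day 10 (right) in WT (blue) and KO (red), with 95% intervals as lines and filled points for an adjusted p under 0.05. Actb and Actg1 lie right of 0 on day 8 in both genotypes, and the Myl12b points of the genotypes lie on opposite sides of 0 on day 10.

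Of the heavy chains, Myh10 was called lower in this step and Myh9 was not called. Myh9 was at 1458, 1546 and 1450 CPM on day 7 and 1503, 1506 and 1487 CPM on day 8 in WT, with log2 fold changes of 0.01 (95% interval -0.16 to 0.18) in WT and 0.02 (95% interval -0.15 to 0.19) in KO. Over all 24 libraries Myh9 stayed between 1333 and 1713 CPM and passed the threshold in no comparison by edgeR, while on log2(TPM + 1) values, a scale on which the median of all genes moved by 0.17 from day 7 to day 8, it was called higher (0.24 in each genotype). Myh10, the chain of myosin IIB, was at 1.45, 1.59 and 0.685 CPM on day 7 and 0.349, 0.421 and 0.518 CPM on day 8 in WT. In KO it was at 1.68, 0.343 and 1.2 CPM on day 7 and 0.294, 0.57 and 0.254 CPM on day 8. WT groups did not overlap and KO groups did, since number 67 was low on day 7. The log2 fold change was -1.52 in WT (SE 0.497, adjusted p = 0.0174) and -1.50 in KO (SE 0.506, adjusted p = 0.0222).

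These Myh10 values rest on 6 to 42 counts per library. The WT call was lost without number 63 (-1.25, adjusted p = 0.167) or 65 (-1.29, adjusted p = 0.154), and on log2(TPM + 1) values (-0.22, adjusted p = 0.0643). The KO call was lost without number 64 (-0.86, adjusted p = 0.313) or 68 (-1.21, adjusted p = 0.137), and with the mouse as a block (-1.29, adjusted p = 0.0731, and -1.28, adjusted p = 0.0546, with KO numbers exchanged to follow Ddx3y). It was also lost with only the libraries compared (-1.48, adjusted p = 0.0905) and on log2(TPM + 1) values (-0.19, adjusted p = 0.106), while without 67 the change was -2.36 (adjusted p = 0.00199). By day 10 the change was -0.98 in WT (adjusted p = 0.112) and -1.08 in KO (adjusted p = 0.0842). The KO change passed without number 67 (-1.28, adjusted p = 0.0325), and without number 64 it was -0.51 (adjusted p = 0.581). Stromal cells are known to use myosin IIB. The summed level of 13 stromal markers was 56.4, 85.9 and 14.6 CPM in WT 63, 65 and 66 on day 7 and 38.5, 35.3 and 14.8 CPM on day 8. In KO it was 29.8, 18.5 and 25.6 CPM in 64, 67 and 68 on day 7 and 13.5, 16.9 and 23.9 CPM on day 8. The days overlapped in both genotypes, and the sum was nearly level in WT 66, where Myh10 went from 0.685 to 0.518 CPM. On day 7 the order of the libraries by this sum, 65, 63 and 66 in WT and 64, 68 and 67 in KO, was also their order by Myh10. The orders also matched on day 9 in both genotypes and on day 10 in WT. They differed on day 8 in both genotypes and on day 10 in KO. In WT on day 8 the order by Myh10 was the reverse of that by the sum. The smooth muscle gene Cnn1 was at most 0.0909 CPM and Lum at most 0.145 CPM, while Col1a1 reached 34.7 CPM. The sum of endothelial markers, most of it Vwf, was lower on day 8 than on day 7 without overlap, as given beside the actins, and stood at 204 to 240 CPM in WT and 194 to 205 CPM in KO on day 9 and at 266 to 285 and 203 to 262 CPM on day 10. The part of stromal or endothelial cells in the Myh10 values was not tested.

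Among the light chains Myl12a rose from day 7 to day 8. In WT it went from 94.5, 95.7 and 98.7 CPM to 112, 110 and 115 CPM, and in KO from 88.7, 91.9 and 95.7 CPM to 110, 107 and 99.3 CPM. The groups did not overlap. The log2 fold change was 0.22 in WT (SE 0.0677, adjusted p = 0.0117) and 0.19 in KO (SE 0.0677, adjusted p = 0.0258). The WT call was lost without number 63 (adjusted p = 0.0757), and the KO call without number 64 (0.14, adjusted p = 0.192) or 67 (adjusted p = 0.0932), with no filter on low counts (0.21, adjusted p = 0.0692) and with only the libraries compared (0.21, adjusted p = 0.0634). Myl6 stayed between 392 and 584 CPM and passed the threshold in no comparison by edgeR with all libraries, although it was called higher on log2(TPM + 1) values of day 8 (0.35 in WT and 0.31 in KO). Its widest spread within a group was 1.44-fold, in KO on day 10.

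Myl9 was close to the limit of detection. It held 82 counts over the 24 libraries, at most 14 in a library, and 0 in 5 libraries, where 3 counts would correspond to 0.0885 to 0.14 CPM. The highest values were 0.562 CPM in WT 63 on day 7, 0.419 CPM in WT 63 on day 8 and 0.331 CPM in KO 67 on day 10. WT 63 had the highest Myl9 of its group on every day, and the Ddx3y-high library had the highest Myl9 in KO on days 7, 8 and 10 but not on day 9. Myl9 fell under the filter on low counts and entered no test. Stromal markers in WT 63 summed to 56.4, 38.5, 48.1 and 35.9 CPM on the 4 days, the highest of the WT libraries on days 8, 9 and 10. On day 7 WT 65 was higher, with 85.9 CPM and 0 counts of Myl9.

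Myl12b was the light chain called in opposite directions in the genotypes from day 7 to day 10. On day 7 the WT libraries held 6.54, 5.76 and 6.12 CPM and the KO libraries 6.98, 6.81 and 6.9 CPM. Day 8 values were 6.32, 6.55 and 6.86 CPM in WT, and 4.74, 5.46 and 4.14 CPM in KO. On day 9 they were 5.11, 5.54 and 6.68 CPM, against 5.24, 5.3 and 5.81 CPM. Day 10 brought 8.26, 7.88 and 7.08 CPM in WT, and 6.2, 5.1 and 5.37 CPM in KO. All KO libraries stood above all WT libraries on day 7, and all stood below them on days 8 and 10, while day 9 overlapped. Of all genes 26.2%, 9.39% and 10.4% showed no overlap between genotypes on days 7, 8 and 10.

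Between days 7 and 8 Myl12b fell in KO, with a log2 fold change of -0.53 (SE 0.121, adjusted p = 0.0016), and in WT the change was 0.10 (95% interval -0.15 to 0.35, adjusted p = 0.54). The KO fall kept its call without each mouse number in turn (adjusted p 0.00275 to 0.0323) and lost it on log2(TPM + 1) values (-0.26, adjusted p = 0.105). The difference between these changes was -0.62 (SE 0.171, 95% interval -0.98 to -0.27, unadjusted p = 0.00159) and did not pass over all genes (adjusted p = 0.526). That comparison was added after the data were seen. It called 0 of the 9 genes and 0.0275% of all genes.

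From day 7 to day 10 Myl12b rose in WT (0.33, SE 0.12, adjusted p = 0.0344) and fell in KO (-0.31, SE 0.12, adjusted p = 0.0469), and the libraries of day 10 did not overlap those of day 7 in either genotype, as in 51.7% of all genes in WT and 43.2% in KO. Both calls were near the threshold. The WT call was lost without number 63 (adjusted p = 0.117), 65 (adjusted p = 0.215) or 66 (adjusted p = 0.0575). The KO call was lost without any 1 of the 6 numbers (adjusted p 0.0524 to 0.161). Both calls were also lost with no filter on low counts (adjusted p = 0.146 in WT and 0.238 in KO). With only the libraries compared they were lost too (adjusted p = 0.0556 and 0.122). On log2(TPM + 1) values the KO change was -0.01 (adjusted p = 0.965), where the median over all genes itself moved by 0.25. The difference between the genotypes was -0.64 (SE 0.169, 95% interval -1.0 to -0.29, unadjusted p = 0.0011, adjusted p = 0.333), with 0 of the 9 genes and 0.0619% of all genes called. The overlap with Gm49909 bears on the counts of both Myl12b and Myl12a, and its part in these values was not tested. The TPM ratio of Myl12b to Myl12a was 0.091 ± 0.00406 in KO and 0.0774 ± 0.00579 in WT on day 7 (SD, n = 3). It was 0.0549 ± 0.00603 against 0.071 ± 0.00241 on day 8, 0.0722 ± 0.00838 against 0.0726 ± 0.0093 on day 9, and 0.0811 ± 0.00799 against 0.106 ± 0.0128 on day 10. The exact permutation p was 0.1 on days 7, 8 and 10, the smallest that 3 against 3 allow, and 1 on day 9 (adjusted 0.2 and 1 over 8 such tests, two-sided).

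Of the kinases, Mylk had the widest range of the tested genes relative to its level. In WT it was at 2.89, 2.57 and 2.35 CPM on day 7 and at 4.4, 5.32 and 5.22 CPM on day 8. Day 9 gave 5.16, 3.86 and 4.95 CPM and day 10 8.26, 6.82 and 8.31 CPM. Day 10 lay wholly above day 9 in WT, and day 8 wholly above day 7. In KO, in the order 64, 67 and 68, it was at 3.75, 5.1 and 3.77 CPM on day 7 and at 5.92, 24 and 4.56 CPM on day 8. Day 9 gave 5.82, 17.6 and 7.41 CPM and day 10 17.9, 6.99 and 12.9 CPM. Number 67 was the highest on days 7, 8 and 9 and the lowest on day 10. On day 8 it held 5.27 times the level of the lowest KO library, whereas the spread within a WT group was at most 1.34-fold.

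Mylk rose from day 7 to day 10 with a log2 fold change of 1.58 in WT (SE 0.506, 95% interval 0.52 to 2.63, adjusted p = 0.0187) and 1.58 in KO (SE 0.483, 95% interval 0.58 to 2.59, adjusted p = 0.0142). The difference between the genotypes in this change was 0.00 with a 95% interval of -1.68 to 1.69, which is wide. The WT call was lost without number 63 (adjusted p = 0.0998), 65 (0.0878) or 66 (0.143) and with the mouse as a replicate block (1.57, adjusted p = 0.0714). It strengthened when the fit held only the WT libraries compared (1.59, adjusted p = 3.68e-05) or left out KO number 67 (1.58, adjusted p = 8.82e-07). The KO call was lost without number 64 (1.16, adjusted p = 0.126) or 68 (1.49, adjusted p = 0.0579), and without 67 the rise was 2.02 (adjusted p = 5.69e-07). Number 67 was the KO library highest in Mylk on day 7 and lowest on day 10, so leaving it out raises this change. Mylk and Myl12b were the genes called in this comparison, 2 of 9 in each genotype, where 37% of all genes were called in WT (18.9% higher) and 36.8% in KO (19.7% higher and 17.1% lower).

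By day 8 Mylk had risen in KO (1.46, SE 0.484, adjusted p = 0.0198), and that rise was 0.49 without number 67 (adjusted p = 0.0704) and 1.13 with the mouse as a block (adjusted p = 0.127). The call was also lost with only the libraries compared (1.47, adjusted p = 0.0941) and on log2(TPM + 1) values (0.87, adjusted p = 0.0683). With KO numbers exchanged to follow Ddx3y the block kept the call (1.10, adjusted p = 0.0453). In WT the change was 0.93 (95% interval -0.14 to 2.00, adjusted p = 0.15), and it passed with the fit limited to the WT libraries (0.94, adjusted p = 0.000565) or without KO number 67 (0.95, adjusted p = 0.000224). A single spread is fitted to all groups. Rock1 rose in KO, from 110, 101 and 99.1 CPM on day 7 to 153, 151 and 107 CPM on day 8 (0.40, SE 0.108, adjusted p = 0.00505). The groups overlapped because number 68 was at 107 CPM on day 8, below the 110 CPM of number 64 on day 7. The call was lost without number 67 (0.33, adjusted p = 0.0675) and with only the libraries compared (0.42, adjusted p = 0.0513). In WT Rock1 went from 110, 112 and 106 CPM to 120, 139 and 122 CPM, which did not overlap but did not pass (0.21, adjusted p = 0.122). It passed under 3 of the 13 alternatives, with only the WT libraries (adjusted p = 0.013), without KO number 68 (adjusted p = 0.0314) and on log2(TPM + 1) values (0.41, adjusted p = 0.022).

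The genes whose pattern was most like that of Mylk over the 24 libraries were Lrrk1, a kinase gene (r = 0.96 of log2 CPM), and Ccl22, a chemokine of mature dendritic cells (r = 0.95). Ccr7, the chemokine receptor that guides mature dendritic cells to lymph nodes, had r = 0.79 and Fscn1, which bundles actin in mature dendritic cells, r = 0.88. The last pair was looked up after the Mylk values were seen. These libraries share days, mice and a common scaling, so that the values are descriptions. In KO on day 8 Ccl22 was at 237, 544 and 176 CPM and Ccr7 at 61.1, 151 and 50.9 CPM in numbers 64, 67 and 68. On day 10 Ccl22 was at 550, 277 and 363 CPM and Ccr7 at 133, 52.2 and 80.6 CPM. In each KO group the library highest in Mylk was also highest in Ccl22 and Ccr7, and it was never the Ddx3y-high library. Ccl22 was picked by its r with Mylk over these same libraries, so its shared order adds nothing to that r. The 14 dendritic cell markers summed to 7677, 8790 and 6926 CPM in these libraries on day 8 and to 11714, 9505 and 10440 CPM on day 10. Their sum ranged from 4972 to 5926 CPM on day 7 to 9067 to 11200 CPM on day 10 in WT. The macrophage sum was 4287, 3431 and 5202 CPM in KO 64, 67 and 68 on day 8 and 2755, 3878 and 3096 CPM on day 10. The megakaryocyte and platelet sum was 520, 309 and 871 CPM, then 94.7, 378 and 154 CPM. In WT the macrophage sum was 4894 to 5284 CPM on day 7 and 2963 to 3022 CPM on day 10. The part of dendritic cell maturation or of other cell types in the Mylk values was not tested.

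**Figure D4:**
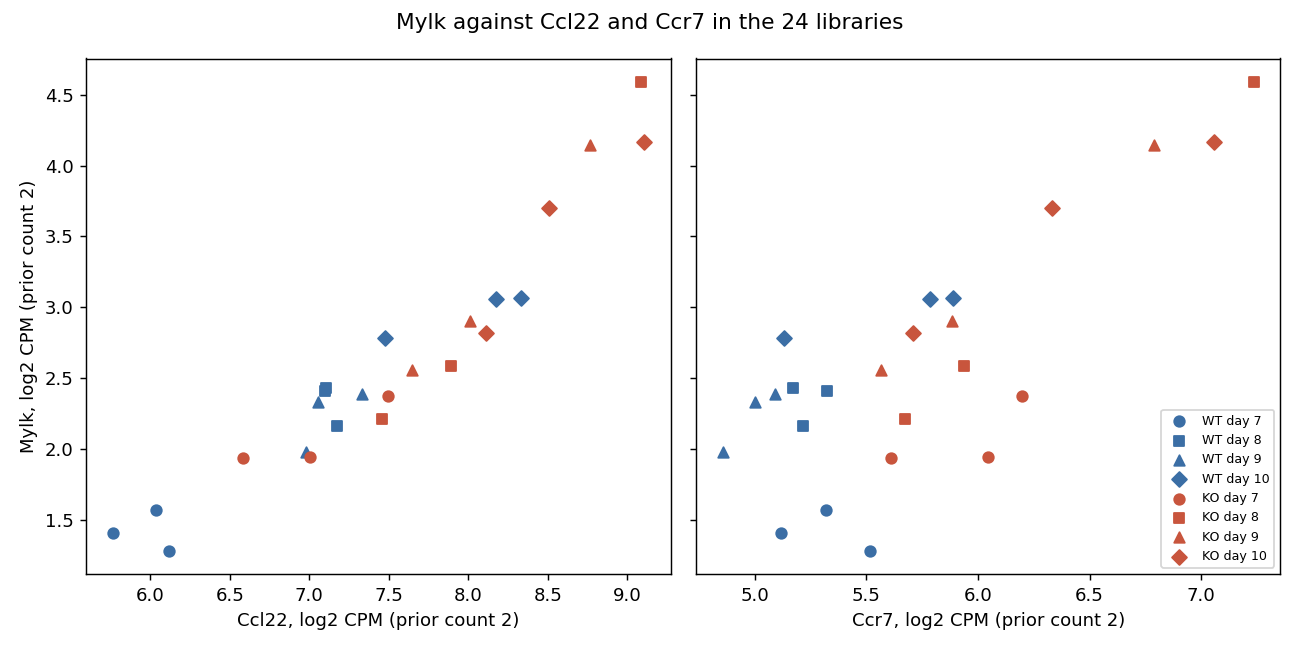
Log2 CPM of Mylk (vertical axis) against Ccl22 (left) and Ccr7 (right) in the 24 libraries, with WT in blue, KO in red and a symbol for each day. The KO libraries with the highest Mylk (24, 17.9 and 17.6 CPM) are also those with the highest Ccl22 and Ccr7.

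Between genotypes none of the 9 tested genes passed the threshold on any day. The calls were 0 of 9 on day 7, where 1.45% of all genes were called (0.832% higher and 0.619% lower), 0 of 9 on days 8 and 9, where 0.00688% were called on each, and 0 of 9 on day 10, where 0.0138% were called (edgeR). Unadjusted p-values under 0.05 numbered 1, 2, 1 and 1 among the 9 genes on the 4 days, where 15.7%, 5.91%, 8.15% and 7.3% of all genes had one, and the DESeq2 Wald test called 0 on each. CPM of the genotypes did not overlap for 3, 2, 1 and 1 of the genes on these days, against 26.2%, 9.39%, 14.1% and 10.4% of all genes. The median log2 fold change of the 9 genes was -0.06, -0.09, -0.07 and -0.01, beside medians of -0.01 to 0.00 over all genes.

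**Figure D5:**
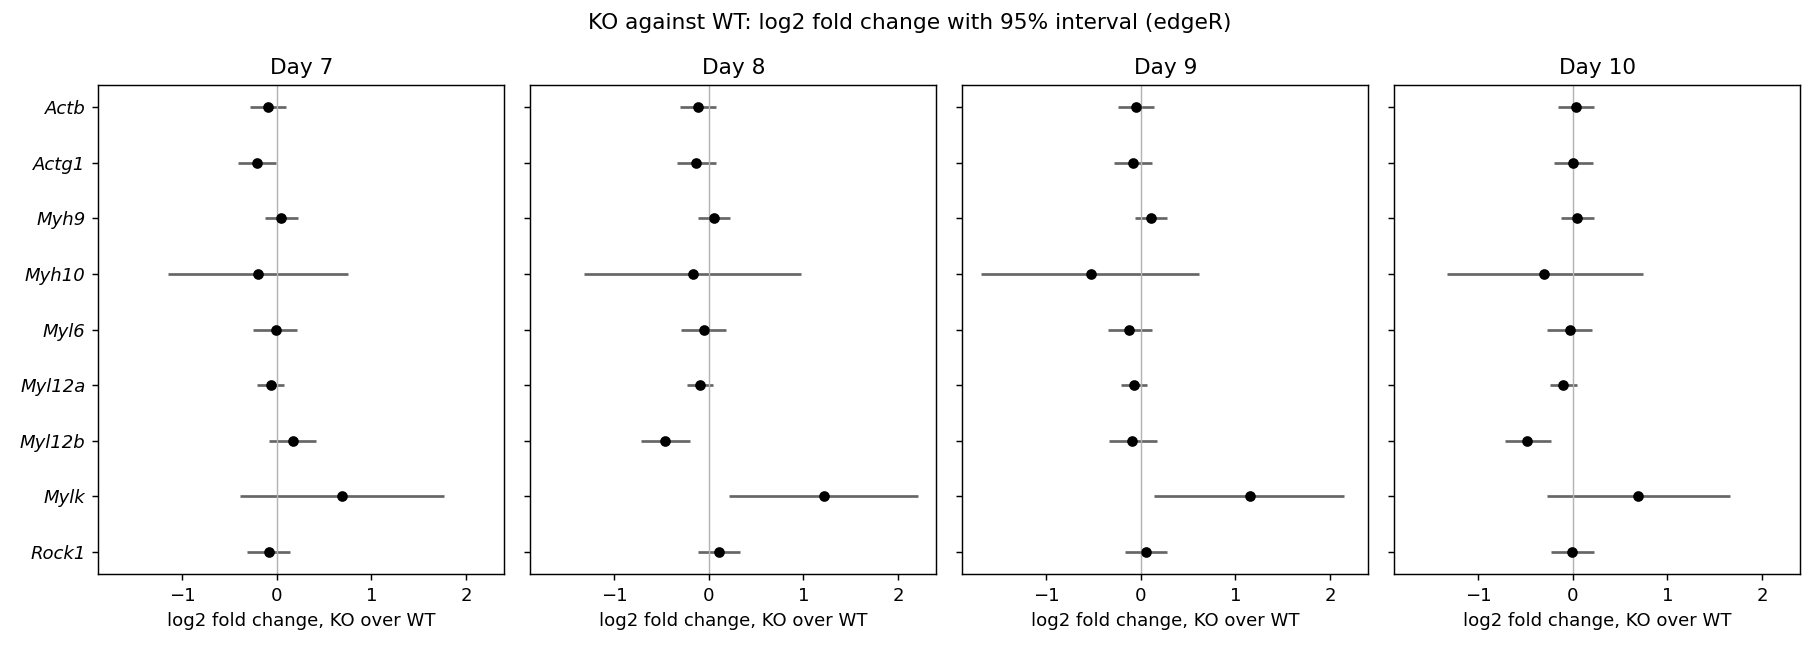
Log2 fold change of KO over WT (horizontal axis) for the 9 tested genes on each day, as a point with its 95% interval. The intervals of Actb, Myh9, Myh10, Myl6, Myl12a and Rock1 include 0 on all 4 days, and those of Mylk and Myh10 are the widest.

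The 95% interval of KO over WT ran from -17.5% to 7.29% for Actb on day 7 and from -10.2% to 16.8% on day 10. For Myh9 it ran from -7.78% to 16.9% on day 7, from -3.97% to 21.7% on day 9 and from -8.06% to 16.5% on day 10. For Actg1 it ran from -25% to -0.629% on day 7 and from -20.4% to 5.34% on day 8. For Myl6 it ran from -21.8% to 8.77% on day 9. Myl6 and Myl12a had intervals of -17.2% to 15.1% and -15.2% to 3.16% on day 10. For Myh10 the interval on day 10 ran from -60.2% to 66.9%.

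The Actg1 mean of day 7 was lower in KO, a fold of 0.864, with means of 1006 ± 107 against 1165 ± 47.8 CPM (SD, n = 3), unadjusted p = 0.0414 and adjusted p = 0.295 (edgeR). Its ratio to Actb on the TPM scale was 0.196 ± 0.0055 in KO and 0.214 ± 0.00363 in WT, and the groups did not overlap. The exact permutation p was 0.1, the smallest that 3 against 3 allow. On days 8, 9 and 10 the ratios overlapped between genotypes, with means of 0.193, 0.185 and 0.191 in KO and 0.196, 0.188 and 0.196 in WT. In WT the ratio was 0.21 to 0.217 on day 7 and 0.184 to 0.199 in the libraries of the later days.

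Myl12b in KO stood at a fold of 0.729 to WT on day 8 (log2 -0.46, SE 0.121, unadjusted p = 0.00121, adjusted p = 0.465) and 0.718 on day 10 (-0.48, SE 0.119, unadjusted p = 0.000674, adjusted p = 0.274). The values stayed negative under all 13 alternatives on each of these days, from -0.55 to -0.35, and none passed the threshold. The fold was 1.12 on day 7 (adjusted p = 0.534) and 0.943 on day 9 (adjusted p = 0.945).

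Mylk in KO stood at folds of 1.61, 2.32, 2.22 and 1.62 to WT on the 4 days, with 95% intervals of the log2 fold change of -0.39 to 1.77, 0.22 to 2.21, 0.14 to 2.15 and -0.27 to 1.66. None passed the threshold (adjusted p 0.557, 0.728, 0.51 and 0.803). The KO libraries lay wholly above the WT libraries on days 7 and 9. Without number 67 the log2 fold change was 0.09 on day 8 and 0.51 on day 9, and on day 10 it was 0.98 and then passed (adjusted p = 0.0149). Number 67 was the KO library highest in Mylk on days 8 and 9 and lowest on day 10. Without number 64, the KO library highest in Mylk on day 10, it was 0.37 on that day (adjusted p = 0.9), beside 0.69 with all libraries. On day 7 each KO library also stood above the WT libraries in Ccl22 (95.9, 180 and 128 CPM against 54.3 to 69.5 CPM) and in Ccr7 (48.7, 73.2 and 65.9 CPM against 34.6 to 45.7 CPM). On that day 26.2% of all genes did not overlap. Ccl22 was picked by its likeness to Mylk in these libraries and Ccr7 was looked up after, so neither is a separate observation.

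From day 8 to day 9 the calls were 0 of 9 genes in WT and 0 of 9 in KO, where 5.4% (3.06% higher and 2.34% lower) and 2.33% (1.31% higher and 1.02% lower) of all genes were called. From day 9 to day 10 they were 0 of 9 in both, where 3.6% (1.18% higher and 2.42% lower) and 0.0963% were called. Unadjusted p-values under 0.05 numbered 3 in WT and 1 in KO for the first of these steps, where 21.8% and 18.7% of all genes had one. They numbered 1 in each for the second, where 17.7% and 12% had one. In WT no overlap was seen for Actb, Actg1 and Myl12a between days 8 and 9, as in 33.8% of all genes, and for Myl6, Myl12b and Mylk between days 9 and 10, as in 25.9%. In KO 0 of 9 genes were free of overlap in either step, where 16.8% and 13% of all genes were. The nearest to the threshold were Myl12a from day 8 to 9 (-0.22, adjusted p = 0.0611, and 0.0465 without KO number 64) and Myl12b from day 9 to 10 (0.42, adjusted p = 0.0567). With the DESeq2 Wald test each of these passed (adjusted p = 0.0232 and 0.0326). Without KO number 67, 2 genes passed from day 9 to day 10 in KO, Mylk (1.21, adjusted p = 0.001) and Myl6 (-0.35, adjusted p = 0.0312). In WT 2 passed as well, Mylk (0.73, adjusted p = 0.0113) and Myl12b (0.41, adjusted p = 0.0454). Among the KO libraries number 67 was highest in Mylk on day 9 (17.6 CPM) and lowest on day 10 (6.99 CPM). For Myl6 it was lowest on day 9 (427 CPM) and highest on day 10 (563 CPM). A KO number need not be 1 animal, so these KO values do not show the effect of leaving out 1 animal. With all libraries the KO changes were 0.29 for Mylk and -0.08 for Myl6. Under the alternatives they ran from -0.33 to 1.21 for Mylk and from -0.35 to 0.12 for Myl6, so that their sign was not fixed.

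Over the 24 libraries Actb and Actg1 varied together (r = 0.91 of log2 CPM, and 0.84 after the group means were removed). Actb was most like Cfl1, the filament-severing protein cofilin (r = 0.97), and Gapdh (r = 0.95). Myl12a was most like Capza2, a filament capping subunit (r = 0.93), and Arpc5, an Arp2/3 subunit (r = 0.92). Rock1 was most like Otud4 (r = 0.96), Myl6 like Atp5mpl (r = 0.94) and Ghdc (r = 0.93), and Actg1, after Actb, like Ndufa10 (r = 0.90). Myh9 (Itpr3, r = 0.80, and Ube4b, r = 0.77), Myh10 (Map3k15, r = 0.84, and Tmem184c, r = 0.83) and Myl12b (Zfp709, r = 0.72, and Tmem170b, r = 0.70) had weaker nearest patterns. Myh9 itself showed r = 0.05 with Actb and r = -0.24 with its light chain Myl6.

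The proteins that bind actin monomers and filaments form the nearest surroundings of the actins, and all 44 symbols of that list were tested. From day 7 to day 8, 24 were called in WT (17 higher, 7 lower) and 22 in KO (17 higher, 5 lower), shares of 54.5% and 50% where 43.4% and 42% of all genes were called, with medians of 0.15 and 0.13. Pfn1, profilin, rose in both (0.79, SE 0.0992, adjusted p = 2.48e-06 in WT and 0.61, SE 0.099, adjusted p = 4.91e-05 in KO). Flna (0.63) and Tpm3 (0.55) rose in WT, and Fscn1 (1.12, with 107 ± 91.1 against 49.4 ± 11.6 CPM) and the membrane linker Ezr (0.70) in KO. Here and for the lists below, a gene given under 1 genotype is among the largest changes of that genotype by the naming rule, and no difference between the genotypes is meant. In KO Fscn1 was far highest in number 67, with 58.7, 212 and 50.6 CPM on day 8 after 36.4, 58.5 and 53.3 CPM on day 7 in 64, 67 and 68, and the days overlapped. In WT Fscn1 went from 22.6, 19.3 and 25.2 CPM to 34.7, 33.1 and 39.8 CPM, with no overlap. Pfn2 fell in both (-1.69 and -1.14), at 1.03 to 3.33 CPM in the WT group means, as did Cnn3 (-1.17) and the thymosin Tmsb10 (-0.55) in WT, and Coro1b (-0.52) and Ssh2 (-0.51) in KO.

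From day 7 to day 10 the same list had 20 calls in WT (11 higher, 9 lower) and 17 in KO (13 higher, 4 lower), shares of 45.5% and 38.6% beside 37% and 36.8% of all genes. Among the largest rises were the cytokinesis scaffold Anln (2.61 in WT and 1.81 in KO), Cnn2 (0.88) in WT and Ezr (0.81) in KO. Cnn3 (-1.59), Pfn2 (-1.49 in WT and -1.0 in KO), Cald1 (-0.82 and -0.96) and, in KO, Coro1b (-0.36) fell most. Between genotypes 4 of 44 passed on day 7, a share of 9.09% beside 1.45% of all genes, and 0 on the later days. Ssh1, a cofilin phosphatase, was higher in KO (57.1 ± 2.5 against 48.3 ± 1.38 CPM, log2 0.24, adjusted p = 0.0283). Lower were the depolymerising proteins Cfl2 (-0.43, adjusted p = 0.0479) and Dstn (-0.43, 179 ± 7.21 against 240 ± 6.27 CPM, adjusted p = 0.0288) and the tropomyosin Tpm4 (-0.27, adjusted p = 0.0365), each over 3 libraries a group by edgeR.

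Of the regulators of small GTPases such as RhoA and of light chain phosphorylation, 38 of 39 were tested. By day 8, 17 were called in WT (9 higher, 8 lower) and 14 in KO (8 higher, 6 lower), shares of 44.7% and 36.8% beside 43.4% and 42% of all genes, with medians of -0.02 and 0.04. S100a4, which binds the myosin IIA tail, rose in both (2.41 in WT and 1.10 in KO), as did Rnd3, an atypical small GTPase (0.97 and 0.88). Ect2 (1.07) rose in WT and Ppp1r14b (0.78), an inhibitor of myosin phosphatase, in KO. The small GTPases Rhoc (-1.29 and -1.11), Rnd2 (-0.75 and -0.73) and Rhob (-0.74 and -0.80) fell in both. From day 7 to day 10, 19 were called in WT (12 higher, 7 lower) and 17 in KO (9 higher, 8 lower), shares of 50% and 44.7% beside 37% and 36.8% of all genes, medians 0.04 and 0.06. The kinase Cit (2.79 and 1.73), the exchange factor Ect2 (2.57 and 1.84), both of the cytokinetic ring, and S100a4 (2.80 and 1.44) rose most. Rhoc (-1.23 and -1.0), the phosphatase subunit Ppp1r12b (-0.83 and -1.03) and Rnd2 (-0.76 in each) fell most. Between genotypes 1 of 38 passed on day 7 (2.63% beside 1.45% of all genes) and 0 on the later days. It was S100a4, with 4.94 ± 1.96 CPM in KO against 1.8 ± 0.225 CPM in WT (log2 1.45, SE 0.27, n = 3 a group, edgeR adjusted p = 0.0112).

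For the pathway of serum response factor, 16 of 22 symbols were tested, since 4 older symbols were not in the table and Myocd and Fhl2 were under the filter. By day 8, 5 were called in WT (3 higher, 2 lower) and 6 in KO (3 higher, 3 lower), shares of 31.2% and 37.5% where 43.4% and 42% of all genes were called. Zyx, a focal adhesion protein (0.52 and 0.36), Fhl3 (0.39 and 0.53) and Egr2 (0.61 and 0.76) rose, and the immediate early genes Fosb (-3.32 and -1.70) and Fos (-1.40 and -0.73) fell, with Tgfb1i1 (-0.89) in KO. By day 10, 12 were called in WT (3 higher, 9 lower) and 8 in KO (3 higher, 5 lower), shares of 75% and 50% where 37% and 36.8% of all genes were called, with medians of -0.78 and -0.33. From day 7 to day 10 the neutrophil marker sum was 1729 to 3391 then 4081 to 5989 CPM in WT, and 2290 to 5952 then 2883 to 4858 CPM in KO. The macrophage sum was 4894 to 5284 then 2963 to 3022 CPM in WT, and 4533 to 5823 then 2755 to 3878 CPM in KO. Their part in the changes of this list was not tested. Fosb fell from 40.2 ± 10.1 to 1.47 ± 0.319 CPM in WT (SD, n = 3). In KO it went from 33.6 ± 4.8 to 5.87 ± 2.94 CPM. Fos changed by -2.50 and -1.64, while Egr1 (-2.46) was among the largest falls in WT and Tgfb1i1 (-1.36) in KO. Fhl3 (0.37 and 0.56), Zyx (0.32 and 0.37) and the cofactor Mrtfa (0.27 and 0.24) rose. None of the 16 passed between genotypes on any day.

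Of the other actin and muscle or minor myosin II genes, 4 of 17 were tested. Acta2 fell from day 7 to day 10 in KO (-0.68, from 7.90 ± 0.765 to 4.93 ± 1.9 CPM, adjusted p = 0.0244, edgeR, n = 3). Myl6b, an alternative essential light chain, fell from day 7 to day 8 in both genotypes (-1.05 in WT, adjusted p = 0.00154, and -0.83 in KO, adjusted p = 0.00747), at group means of 0.634 to 1.38 CPM. It rose again from day 8 to day 9 in WT (0.97, adjusted p = 0.0281).

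In the later steps the shares called between days 8 and 9 were near those of all genes. Of the actin-binding list 3 of 44 passed in WT (6.82%) and 2 in KO (4.55%), and of the GTPase and light chain regulators 2 of 38 in WT (5.26%) and 1 in KO (2.63%), beside 5.4% and 2.33% of all genes. None of the 16 genes of the serum response factor list passed. Between days 9 and 10 in WT, 3 of those 16 passed, all lower (18.8% beside 3.6% of all genes), with 1 of 44 (2.27%) and 0 of 38 in the other lists. Between days 8 and 9 the cytokinesis genes Anln (1.58, adjusted p = 0.0145), Cit (1.73, adjusted p = 0.0162) and Ect2 (1.29, adjusted p = 0.0461) rose in WT, and Anln rose in KO (1.32, adjusted p = 0.0467). The bundling protein Lcp1 (-0.29, adjusted p = 0.0286) and Tpm4 (-0.27, adjusted p = 0.0195) fell in WT, and Tpm4 (-0.28, adjusted p = 0.0296) and the kinase Dapk1 (-0.26, adjusted p = 0.0424) in KO. Between days 9 and 10 Tpm3 (-0.29, adjusted p = 0.0119), Egr1 (-1.64, adjusted p = 0.00928), Egr2 (-0.95, adjusted p = 0.0132) and Fos (-1.05, adjusted p = 0.0351) fell in WT, and no gene of the lists passed in KO (edgeR, n = 3 a group).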

How the data were processed

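Whole-gene counts and TPM were deposited by the authors as tables for 55487 genes in 24 libraries. The deposited counts are whole numbers and not normalized. The deposited TPM values are scaled by gene length and library total, with lengths not stated. Per the submitters' processing notes, FastQC 0.11.9, STAR 2.6.1, DESeq2 1.22.2 and the mm10 build were used, and the counter, its strand setting and the annotation are not given in the sources used here. Counts were analysed in R 4.3.3 with edgeR 4.0.16: filterByExpr kept 14535 of 28655 genes with a count, TMM factors were applied, and the quasi-likelihood model, with a term for each of the 8 groups (16 residual degrees of freedom), was tested with Benjamini-Hochberg adjustment over all genes tested, two-sided, at 0.05. An SE is the log2 fold change over the square root of F, and intervals are 95%. TPM served to compare levels between genes and, as log2(TPM + 1), for limma-trend (limma 3.58.1). DESeq2 1.42.0 was an alternative. The steps were tested on simulated data.

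The 10 genes, the gene lists and the markers were chosen with earlier results of these data known. Named genes are the 10 genes, Arpc4, up to 3 called genes per direction from each list and comparison, and the 2 tested genes (average log2 CPM above 1, no predicted-gene name) with the highest Pearson r of log2 CPM (prior count 2). Others are said to have been looked up later, or serve as markers or as overlapping or related genes. Some genes that the rule names are not reported here.

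Mouse numbers in the labels pair libraries across days. Over 11111 genes, deviations from group means of same-numbered libraries had mean correlations of 0.62, 0.49 and 0.37 for WT 63, 65 and 66 (lowest 0.15), and -0.14, -0.01 and 0.13 for KO 64, 67 and 68 (-0.80 to 0.80). The fit with the mouse as a replicate block (duplicateCorrelation, consensus 0.00464) and 1 with KO numbers exchanged on days 8 and 10 to follow Ddx3y (0.23) were alternatives. Without a block, libraries of 1 mouse on different days were taken as independent. Totals were 19952047 to 31049798 counts per library, and reads carry no molecular identifiers, so a count's own error covers counting only. The 2 kits named in the labels' protocols are not tied to libraries, so no batch could be fitted.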

Additional observations from a re-analysis of the deposited data

Results flagged for a closer look

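The change of Myl12b from day 7 to day 10 drew attention because all libraries of day 10 stood above those of day 7 in WT and all stood below them in KO. The difference between the genotypes in this change was -0.64 on the log2 scale (edgeR, adjusted p = 0.333), so that the test of the difference itself did not pass over all genes. It lay between -0.73 and -0.55 under the 14 alternatives, with adjusted p from 0.113 to 0.99. The part of the overlap with Gm49909 in the Myl12b counts was not tested.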

How the results depend on the processing

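Of 1678 values of single genes under the alternatives, 1600 kept their side of the threshold, 95 of them with a change of sign and no call on either side, 42 lost a call, 33 gained one and 3 reversed with a call. The 3 that reversed came from limma-trend on log2(TPM + 1), a scale that moves the median of all genes by 0.17 to 0.25 from day 7 to later days: Actg1 (0.25) and Myl6 (0.23) from day 7 to day 10 in WT and Myl6 (0.22) in KO. The cause was not tested. Of the 9 genes, limma-trend called 6 from day 7 to day 10 in each genotype. Without a low-count filter 1 was called there in each genotype, as with only the libraries compared. With only those libraries 3 were called from day 7 to day 8 in KO, 3 from day 8 to 9 in WT and 1 from day 9 to 10 in WT. The DESeq2 Wald test called 1 in each of the last pair of WT steps, and a filter of 50 counts on average 1 in the last.

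With the mouse as a replicate block, 1 gene was called from day 7 to day 10 in WT against 2 without it, and beside the calls named for Actb, Myh10 and Mylk it changed no other call of the 9 genes. That block, with a consensus of 0.00464, takes up little of the pairing seen in WT. The block with KO numbers exchanged (0.23) was read only for changes within KO and for differences between genotypes in a change. The WT day steps were therefore not tested with a block of that strength. The block with KO numbers exchanged called 1295 genes from day 8 to 9 and 457 from day 9 to 10 in KO, and 16 and 13 for the differences between genotypes to day 10 and to day 8.

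Leaving out 1 mouse number gave these ranges of called genes among the 9: 0 to 1 for KO against WT on day 10, 0 to 2 from day 7 to 10 in each genotype, 1 to 5 from day 7 to 8 in WT and 4 to 7 in KO, 0 to 1 from day 8 to 9 in WT, and 0 to 2 from day 9 to 10 in each genotype. An arm left with 2 libraries was tested with the pooled spread. A KO number left out may take out libraries of different mice on different days, and no number was left out with KO numbers exchanged. Over all genes the ranges were 11 to 351, 1 to 30, 1 to 3 and 1 to 82 for KO against WT on days 7 to 10, 3255 to 5916 and 3201 to 5805 from day 7 to 10 in WT and KO, 17 to 1653 and 20 to 547 from day 8 to 9, 0 to 1064 and 0 to 2090 from day 9 to 10, and 1 to 9 and 0 to 2 for the differences to day 10 and day 8.

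Counts of called genes for KO against WT on days 7 to 10 were 340, 25, 90 and 43 without a filter (211, 1, 1 and 2 as reported) and 523, 17, 90 and 43 with DESeq2. They were 120 and 10 on days 7 and 10 with limma-trend, 2 and 1 on days 9 and 10 with 50 counts on average, and 1 on day 10 with only the libraries compared. For the day steps, only the libraries compared gave 3363 from day 7 to 10 in KO, 2180 (WT) and 0 (KO) from day 8 to 9, and 828 (WT) and 0 (KO) from day 9 to 10. DESeq2 gave 1325 and 868, then 819 and 207, limma-trend 521 in WT from day 8 to 9, and no filter 597 and 49 in KO. The difference to day 10 had 15 (no filter), 0 (only the libraries compared) and 37 (DESeq2), and that to day 8 had 10, 1 and 24, with 8 at 50 counts on average and 0 with limma-trend. Depth limits Myh10 and Myl9, at no more than 42 and 14 counts per library.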
